A study of Homo sapiens with 4 samples.

Results

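The SR proteins are a family of RNA-binding splicing factors, and the data presented here concern m6A on the mRNAs that encode 10 of them: SRSF1, SRSF2, SRSF3, SRSF4, SRSF5, SRSF6, SRSF7, SRSF9, SRSF10 and SRSF11. These genes were found in the m6A peak list of MDA-MB-231 cells by their Ensembl gene IDs, without the version. The list held 20261 peaks on 10140 gene IDs, and 14 of the peaks belonged to 8 of the 10 SR genes. MDA-MB-231 is a widely used human cell line derived from triple negative breast cancer. For m6A-seq, poly(A) RNA had been fragmented and immunoprecipitated (IP) with an anti-m6A antibody, and 2 IP libraries were compared with 2 input libraries without IP. All 4 libraries came from cells labelled shNS, so neither a treatment nor a knockdown was compared. The treatment label of the IP libraries names YTHDC1, while their titles and protocol describe m6A-seq, and the titles were followed.

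Each peak carries a single score for the 4 libraries together, taken here as the p-value of IP over input, although an FDR is also possible, since the file does not name it. No value of a single library, no fold enrichment and no read count is listed. The spread between replicates and the depth behind a peak are therefore unknown, no test over samples could be made, and all comparisons below are descriptions of this list. A smaller score depends on how many reads a transcript had as well as on how much of it was methylated, and the list gives no expression values. For the same reason the labelled cell line could not be checked against markers. Scores ran from 0, which was listed for 466 peaks and is placed here at a −log10 of 323, to 0.0089, with a median of 5.2e-08. Minus-strand genes held 72.3% of all peaks. Each SR gene was hence compared with protein-coding genes of its own strand.

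SR proteins bind exonic enhancers in pre-mRNA through RNA recognition motifs and recruit the spliceosome through domains rich in arginine and serine. Several of them also accompany the spliced mRNA to the nuclear export receptor NXF1. The nuclear m6A reader YTHDC1 is known to work through SRSF3 in splicing and in mRNA export, and to oppose SRSF10. SR genes are also known for poison exons, which are conserved internal exons with a premature stop codon whose inclusion lowers the amount of the protein.

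The 14 peaks lay at different places along the genes. In the final 10% of the span were 5 peaks, in SRSF4 and SRSF11, among them the strongest of the family and 1 weak peak of SRSF11. Near the 5′ end were 5 peaks, in SRSF1, SRSF3, SRSF7, SRSF9 and SRSF10, and for SRSF3, SRSF7 and SRSF9 this was the only peak of the gene. The remaining 4 peaks were in neither place and belonged to SRSF1, SRSF10 and SRSF5, whose only peak was just outside the final 10%. SRSF2 and SRSF6 had no peak. A peak was thus listed for 8 of 10 SR genes, against 40.8% of all RefSeq protein-coding genes. Among plus-strand genes it was 3 of the 4 members (29.3% of all plus-strand genes with a strand in the reference table), and the 5 members with a minus strand in that table had one (55.6%). SRSF2, without a peak, has no strand in that table and is in neither count. These backgrounds count genes whether or not they were expressed in the cells, since the list gives no expression values. A higher share among SR genes is therefore not a measure of methylation alone. The stronger part of the list, with scores no larger than the median, held 9 of the 14 peaks, and 6 of the 8 SR genes had at least 1 of them (65.2% of all protein-coding genes with a peak). By strand these were 4 of 5 minus-strand members, where the background was 77.9%, and 2 of 3 plus-strand members, where it was 41.5%.

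**Figure D1:**
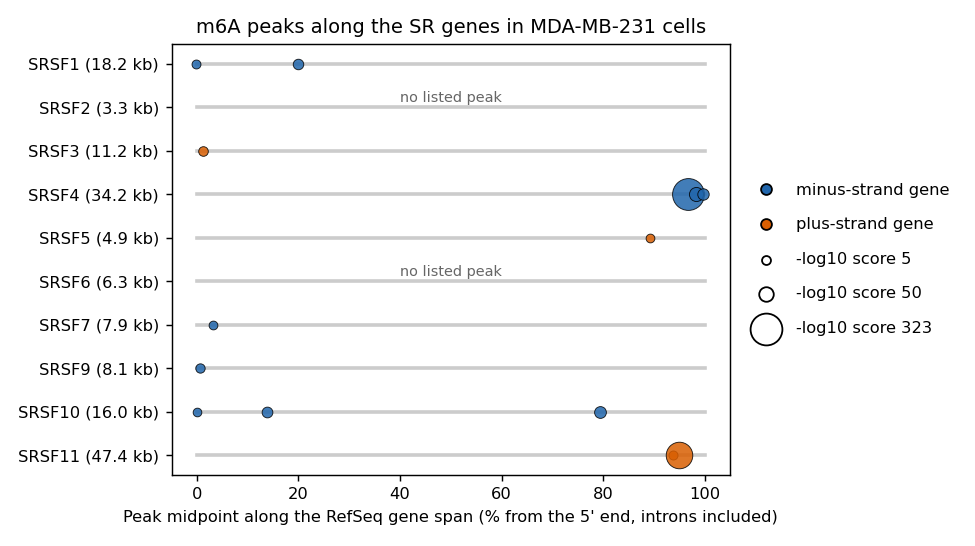
Midpoint of each of the 14 listed peaks along the RefSeq span of its gene, in percent from the 5′ end with introns included; each row is 1 SR gene with its span in kb, colour gives the gene strand and circle area rises with −log10 of the score. The largest circles are those of SRSF4 at 96.7% and SRSF11 at 94.9% of the span, while SRSF1, SRSF3, SRSF7, SRSF9 and SRSF10 each have a small circle at the 5′ end.

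The 5′ peaks could be read in part from the RefSeq promoter windows (GRCh38.p14, 250 bases before to 50 bases from each start), which were available for 9 of the 10 genes. m6A is placed within the RRACH motif, in which R is A or G and H is A, C or T. In the 5 readable stretches, of 50 to 141 bases, the motif was found on the transcribed strand in SRSF7 only. SRSF3 and SRSF10 held the letters GGACN without a match to RRACH, and the stretches of SRSF9 and SRSF1 held neither. The stretches shown are those with GGACN, in the direction of transcription and with GGACN in capitals, and the SRSF7 stretch is the one that matches RRACH.
SRSF7: gtagtgccgccgGGACTcttggcgggtgaa
SRSF3: ccgccatttcgtGGACGccgggtgagtgag
SRSF10: cgcctgagccgcGGACGgtttgctgagccc

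They lie on GRCh38.p14 at chr2:38751332-38751361 (minus strand) for SRSF7, chr6:36594362-36594391 (plus strand) for SRSF3 and chr1:23980288-23980317 (minus strand) for SRSF10. Their capitals begin 146, 13 and 23 bases from the outermost RefSeq start, counted as 1, respectively. For comparison, 50.6% of the 1469 stretches of at least 50 bases in which a protein-coding peak met its own promoter window held RRACH, with a median stretch of 63 bases. The motif occurs in 94.3% of all 35116 promoter windows on the transcribed strand and in 94.7% on the other strand, and in all 11 windows of the SR genes on the transcribed strand. The rest of the SR peaks could not be read, and nothing is said of motifs there. The antibody is known to bind m6Am, the methylated adenosine next to the cap, as well as m6A, and the list does not separate these marks at a 5′ end.

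SRSF3, the smallest SR protein and the partner of YTHDC1, had a single peak (ENSG00000112081.17, chr6:36594353-36594642, plus strand). Its score of 4.4e-10 was smaller than the smallest score of most plus-strand genes, at percentile 67.6, where a percentile is the share of same-strand protein-coding genes with a peak whose strongest peak was weaker. The peak began 9 bases before the RefSeq start and was 180 bases long in blocks of 129 and 51 bases, with 110 bases between them. Blocks of 1 peak are joined across an intron by the peak caller. From the end of the peak to the 3′ end of SRSF3, 10958 bases of the gene, no peak was listed.

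SRSF7, which shuttles between nucleus and cytoplasm and serves as an mRNA export adaptor like SRSF3, also had a single peak (ENSG00000115875.19, chr2:38751104-38751374, minus strand). Its score was 9.1e-05, weaker than that of most minus-strand genes (percentile 9.43). It comprised blocks of 146 and 35 bases with 90 bases between them. The peak began 120 bases inside the outermost RefSeq start and 13 bases before the other RefSeq start of the gene. The remaining 7505 bases towards the 3′ end had none.

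SRSF9, a small SR protein with a short arginine and serine domain, had 1 peak of 90 bases (ENSG00000111786.9, chr12:120469659-120469748, minus strand). This peak began exactly at the RefSeq start. Its score was 3.2e-08, at percentile 22.5. With 90 bases in all, SRSF9 was also low in peak length (percentile 2.64 of minus-strand genes).

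SRSF1, the prototype of the family and a known oncogene, had a 5′ peak and a stronger peak within the gene (ENSG00000136450.13, minus strand). The 5′ peak (chr17:58007256-58007316, 61 bases, score 1.2e-05) lay wholly before the RefSeq start, from 70 bases upstream. RefSeq and the GENCODE annotation used by the authors can differ in gene ends. The other peak (chr17:58003465-58003764, 300 bases) had a score of 3.2e-16, at percentile 36.3, and began 3482 bases from the RefSeq start. A gene ID without a symbol, ENSG00000266086, had a weak peak of 61 bases on the same strand (score 0.0005) only 43 bases away, and ENSG00000264112 had one of 120 bases (7.4e-05) further along the RefSeq span of SRSF1. The list alone does not say whether these are separate from SRSF1.

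SRSF10, which represses splicing in its dephosphorylated form, had 3 peaks (ENSG00000188529.15, minus strand) of rising strength from 5′ to 3′. The peak at the start (chr1:23980208-23980418, 211 bases) began 91 bases before the RefSeq start and had a score of 0.00049, the weakest of the 14. The next one (chr1:23978046-23978226, 181 bases) had a score of 7.9e-18 and began 2101 bases into the gene. The strongest (chr1:23967491-23967791, 301 bases, score 6.3e-26) ended 3144 bases before the RefSeq 3′ end, at 79.4% of the span. SRSF10 lay near the middle of minus-strand genes in strength (percentile 45.9) and in peak length (693 bases, percentile 56.9).

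Of the 8 SR genes with a peak, 5 thus had one whose midpoint was within 300 bases of the 5′ end, against 16.9% of all protein-coding genes with a peak. The window was chosen after these positions had been seen. By strand these were 4 of 5 minus-strand members, where 18.2% of all minus-strand protein-coding genes with a peak had such a peak, and 1 of 3 plus-strand members, where it was 14.4%. The spans of the SR genes ran from 3297 to 47357 bases. Among genes of at most 50 kb the background was 20.7% on the minus strand and 16.3% on the plus strand, and the part of gene length in the SR count was not tested. With windows of 200, 500 and 1000 bases, 3, 4 and 4 of the 5 minus-strand members had such a peak, where the background was 15.3%, 22.4% and 27.9%. On the plus strand it was 1 of 3 members with each window, and the background was 11.9%, 18.1% and 23.8%. The 5′ peaks were weaker than the other SR peaks, with a median score of 1.2e-05 over 5 peaks against 6.3e-23 over 9, and 2 of them belonged to the stronger part of the list. The same order was present over all minus-strand protein-coding peaks, at 4.9e-07 for 979 5′ peaks and 6.3e-13 for the others, and on the plus strand it was 5.3e-05 and 1.4e-05.

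**Figure D2:**
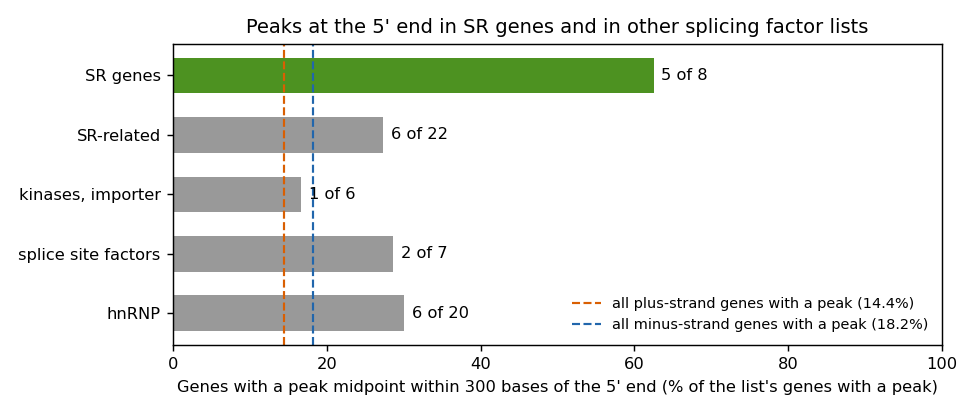
Share of genes with a peak midpoint within 300 bases of the 5′ end, in percent of the genes of each list that had a peak, with the counts beside the bars and dashed lines for all plus-strand and all minus-strand protein-coding genes with a peak. The bar of the SR genes stands at 62.5% (5 of 8), the longest of the other bars is that of the hnRNP genes (6 of 20), and the lines are at 14.4% and 18.2%. SRSF8 and SRSF12, SR genes outside the members and without a 5′ peak, are not drawn.

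SRSF4, a large SR protein with a long arginine and serine domain, had the smallest score of the family (ENSG00000116350.17, minus strand). It had 3 peaks, all in the last 1468 bases of the gene, and 81.8% of these bases were inside a peak. The strongest (chr1:29148552-29149210) was 659 bases long and was listed at 0. The middle peak (chr1:29148192-29148462) had 271 bases and a score of 1.6e-46. The last (chr1:29147743-29148013) also had 271 bases, with a score of 6.3e-23, and ended exactly at the RefSeq 3′ end. Only 89 and 178 bases separated them. SRSF4 stood at percentile 96.4 in strength, which is shared with all minus-strand genes listed at 0, and at percentile 79.1 in peak length with 1201 bases.

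SRSF11, an SR protein that is found with the factors of the 3′ splice site, was the strongest plus-strand member (ENSG00000116754.13, percentile 98.5). Its main peak (chr1:70250344-70250897) had a score of 1e-218 and 450 bases in blocks of 160 and 290 bases, with 104 bases between them. A weaker peak (chr1:70249984-70250164, 181 bases, score 1.9e-06) lay 179 bases before it. The main peak ended 2155 bases before the RefSeq 3′ end of the gene. Unlike SRSF4, the very end of SRSF11 had no peak.

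SRSF5, an SR protein first described as induced in regenerating liver, had only 1 weak peak (ENSG00000100650.16, chr14:69771436-69771526, plus strand) of 91 bases. Its score was 0.00013 (percentile 26.5). It ended 479 bases before the 3′ end, at 89.2% of a span of 4864 bases, so that it was just outside the final 10%.

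**Figure D3:**
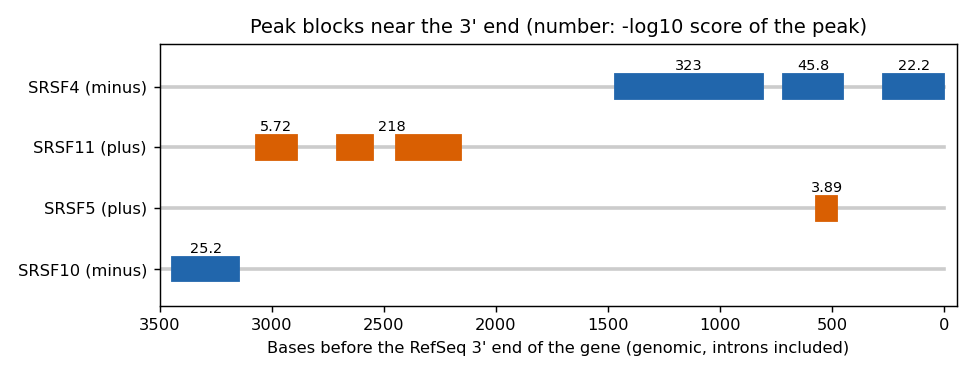
Blocks of the peaks of SRSF4, SRSF11, SRSF5 and SRSF10 in the last 3500 bases before the RefSeq 3′ end, on a genomic scale with introns included; the number above a peak is −log10 of its score, and 323 stands for a score listed as 0. The blocks of SRSF4 reach the 3′ end, whereas SRSF11 and SRSF10 have none in their last 2155 and 3144 bases.

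In the final 10% of the gene span were 5 of the 13 SR peaks with a midpoint inside the span (38.5%, 95% Wilson interval 17.7 to 64.5%, counting error only), all of them in SRSF4 and SRSF11. The interval treats peaks as independent, which peaks of 1 gene are not. Those of SRSF4 lay only 89 and 178 bases apart, so the interval is too narrow to serve as an error of the family. Over all protein-coding peaks it was 36.5%, with 36.9% on the minus strand and 35.3% on the plus strand. The SR share was therefore near the background. With the 3′ end taken as the last 1000 bases it was 23.1% of SR peaks and 17.2% of all, and as the final 20% of the span it was 46.2% of SR peaks and 8149 of all 16636 peaks.

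To compare strength over the family, each gene was ranked within its strand by its smallest score. The 8 percentiles ran from 9.43 in SRSF7 to 98.5 in SRSF11, with a median of 41.1. SRSF11, SRSF4 and SRSF3 lay above the median of their strand and the other 5 below it. In total peak length the median percentile was 31.4. The median length over all genes was 600 bases on the minus strand and 241 bases on the plus strand. Ordered by score within the minus strand, SRSF4 was followed by SRSF10, SRSF1, SRSF9 and SRSF7, and within the plus strand SRSF11 by SRSF3 and SRSF5. Whether neighbours in this order differ beyond replicate error cannot be said from 1 score each.

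**Figure D4:**
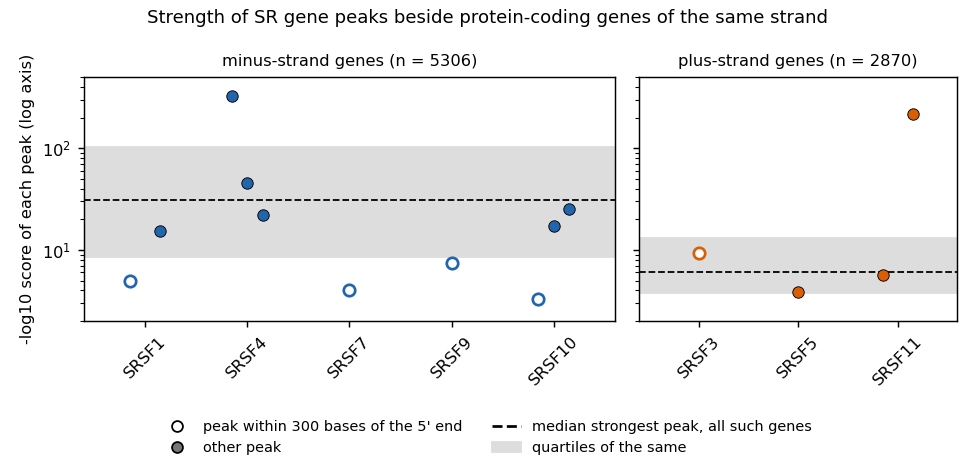
−log10 score of every SR peak (log axis) for minus-strand and plus-strand genes; open circles are peaks within 300 bases of the 5′ end, and the dashed line and grey band give the median and quartiles of the strongest peak of all 5306 minus-strand and 2870 plus-strand protein-coding genes with a peak. Only SRSF4 and SRSF11 have a peak above the grey band, and all 4 open circles on the minus strand lie below it. The open circles of SRSF1 and SRSF10 are not the strongest peaks of these genes, so for them the band is not a like comparison.

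SRSF2 and SRSF6, both well-known regulators of exon inclusion, had no peak in the list analysed here. This does not show that their mRNAs were unmethylated. MFSD11, on the plus strand, has a RefSeq span that overlaps that of SRSF2. It had a peak of 330 bases (chr17:76737523-76737852, score 3.2e-20) that began 112 bases beyond the RefSeq span of SRSF2. MECR, whose RefSeq span overlaps that of SRSF4, also had 1 peak. No SR peak lay inside the span of MFSD11 or MECR. None of the 14 SR peaks overlapped a peak on the opposite strand, while 7.07% of minus-strand and 17.8% of plus-strand peaks in the list did. The authors' mapping allowed reads with several alignments, and whether such reads entered the peak calling is not stated. None of the 11 pseudogenes named after an SR gene had a peak. The share of all pseudogenes with a peak was not counted, so this does not show whether such reads affected the SR peaks.

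Whether a peak lies on a poison exon was not analysed, since a map of exons was not used here. The positions do not decide this, since a share of a span with introns does not separate internal exons from the last exon. In SRSF3, SRSF7 and SRSF9 no peak was listed beyond the 5′ peak. Peaks outside the 5′ window and before the final 20% of the span were found in SRSF1 and SRSF10 only. Peaks beyond that limit, such as the main peak of SRSF11 with its separate blocks, may also lie on internal exons. The gaps inside the peaks of SRSF3, SRSF7 and SRSF11, at 110, 90 and 104 bases, were short. Of all 2749 peaks with 2 blocks, 7.06% had a gap of at most 110 bases, and the median was 1296 bases.

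Other genes of the splicing machinery were examined as lists. The SR genes outside the 10 members, SRSF8 and SRSF12, both had peaks. SRSF12 had 1 of 449 bases (chr6:89098436-89098884, score 1.3e-91) at 87.8% of its span. SRSF8 had 3, with a smallest score of 2.5e-13. Those at chr11:95067973-95068211 and chr11:95068058-95068676 overlapped and came from different parts of the list, whose chromosome order starts anew. None of these 4 peaks of SRSF8 and SRSF12 was at a 5′ end. Among 23 SR-related proteins, which carry arginine and serine stretches without being classical SR proteins, 22 had a peak. The background was 40.8% of all protein-coding genes, expressed or not. The median percentile of the SR-related genes was 89.6, and 6 of the 22 had a 5′ peak, against 16.9% of all protein-coding genes with a peak. SREK1, LUC7L3, SCAF1, SCAF4, ACIN1 and RBM39 each had a peak listed at 0. TRA2A and TRA2B, the splicing activators closest to SR proteins, each had 1 peak and it was at the 5′ end, with scores of 0.002 and 7.9e-66.

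The background of 40.8% for any peak and 16.9% for a 5′ peak also applies to the lists that follow, and it is higher on the minus strand (55.6% and 18.2%) than on the plus strand (29.3% and 14.4%). The shares for any peak again count genes whether or not they were expressed. Of 9 kinases and importer genes that act on SR proteins, 6 had a peak. SRPK2 (1e-173) and SRPK1 (1e-161), which phosphorylate SR proteins in the cytoplasm, and TNPO3 (4e-82), which imports them, had the smallest scores. Of the CLK kinases, which phosphorylate SR proteins in the nucleus, CLK1, CLK2 and CLK4 had none. CLK3 had 1 weak peak (0.00058, percentile 16.0 of plus-strand genes). Of 9 splice site factors 7 had a peak, of which 4 are plus-strand and 3 minus-strand genes. Within their strands, U2AF2 (1e-180, plus) stood at percentile 98.1, SNRNP70 (7.9e-34, plus) at 88.6 and SF3A1 (1e-188, minus) at 86.0. The midpoint of this U2AF2 peak lay before the RefSeq start of the gene, at −2.55% of the span. Of 24 hnRNP genes, whose products often act against SR proteins, 20 had a peak, 14 of them on the minus strand, their median percentile was 78.1 and 6 had a 5′ peak, among them HNRNPA2B1, HNRNPC and HNRNPK. Differences between these lists were not tested. The share of each list with a 5′ peak is given in the bar plot, except for SRSF8 and SRSF12, which are not drawn and had none.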

How the data were processed

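m6A-seq peaks of MDA-MB-231 cells were analysed as 1 list for 2 input and 2 IP libraries, grouped by title. The authors mapped reads with STAR to the GENCODE v33 transcriptome and called peaks with exomePeak at default settings, and a peak was kept at a fold enrichment of 1 or more with an FDR up to 0.05. The build hg38 is given in the submitters' processing notes. The deposited score was read as a p-value per peak. Its kind is not stated, and replicates had been combined, so depth and replicate error are unknown. The chromosome order of the list starts anew within it, and each such run was taken as a part of the list. What the parts stand for is not stated. All 14 SR peaks were in the first part, whereas the backgrounds use the whole list, so a peak region can be counted in more than 1 part.

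Gene IDs were matched to symbols, and spans and biotypes were taken from RefSeq (GRCh38.p14) by symbol. An exon map was not used here. Coordinates count from 1. A position is the peak midpoint along the gene span. A percentile is the share of same-strand protein-coding genes with a weaker strongest peak, ties shared. Overlaps needed 1 base. Strands of genes without a peak came from the promoter table. Functions were tested on simulated data (Python 3.11.15, pandas 2.3.3, scipy 1.17.1). Alternatives were the stronger part of the list (scores no larger than its median), merging, the first part of the list alone, other backgrounds and other windows. All 10 members and each of their peaks were named, with at most 6 genes of any other list, those with the smallest scores, and genes with peaks beside a member. TRA2A, TRA2B, CLK1, CLK2, CLK3, CLK4, HNRNPA2B1, HNRNPC and HNRNPK were named after their values had been seen. Of the splice site factors, SNRNP70 was described outside this rule, since SF1 had a smaller score (1e-150). Members and lists were chosen with earlier results of these data known.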

Additional observations from a re-analysis of the deposited data

How the results depend on the processing

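Keeping only peaks with scores no larger than the list's median changed the most, leaving 9 of the 14 SR peaks and 2 of the 5 genes with a 5′ peak. This restriction removes weak peaks by construction, and the smaller counts follow from it. The number of SR genes with a peak was 6 under it and 8 otherwise. All 14 peaks remained after merging, without opposite-strand overlaps and in the first part of the list. These 3 settings could not change the count. No SR peak overlapped another peak of its gene or an opposite-strand peak, and all were in the first part. The share in the final 10% of the span (38.5%) was 23.1% within 1000 bases of the 3′ end and 46.2% in the final 20%, which are other regions with other backgrounds (17.2%, and 8149 of 16636 peaks), and was 44.4% for the stronger peaks. The median percentile of 41.1 ranged from 40.2 to 48.8 over 5 alternatives. Windows at the 5′ end were chosen after seeing the data. No paired analysis was possible because each peak has 1 score for all 4 libraries, and for the same reason no replicate could be left out. Since depth is unknown, a weak peak of SRSF2 or SRSF6 may have been missed.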

Other observations

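The lists of splicing genes also differed in where their peaks lay, although the differences were not tested. Only peaks with a midpoint inside the span were counted. These were 10 of 14 for the splice site factors and 41 of 44 for the hnRNP genes. In the final 10% of the gene span were 8 of 14 peaks of the kinase and importer genes (57.1%) and 4 of 10 such peaks of the splice site factors, against 36.5% over all protein-coding peaks inside a span. It was 12 of 66 peaks of the SR-related genes (18.2%) and 5 of 41 peaks of the hnRNP genes (12.2%). The strongest peak of HNRNPU was 960 bases long at 5.04% of its span and was listed at 0, and that of HNRNPA0 (540 bases, also listed at 0) was at 15.1%. For HNRNPA2B1, a peak of 601 bases listed at 0 was at 57.3%, and for HNRNPF, a peak of 1135 bases listed at 0 was at 92.9%.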
